A study of Homo sapiens with 6 samples.

Results

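Aminoacyl-tRNA synthetases are the enzymes that join each amino acid to its transfer RNA. The genes described here are 36 synthetase genes, 20 that serve the cytosol and 16 that serve mitochondria, chosen by name and all found among the 23619 gene symbols of the study. They were measured by RNA sequencing in HG3, a lymphoblastoid cell line established from B cells of chronic lymphocytic leukaemia and immortalised with Epstein-Barr virus. The labels give 3 control libraries and 3 treated ones, numbered 17, 18 and 28 in both groups and all made from total RNA. The design text describes the treated ones as fludarabine-resistant pools of HG3 and the controls as parental, in 3 pairs. Fludarabine is a purine nucleoside analogue used against this leukaemia. The series is a transposon mutagenesis study. Whether the control pools also carry insertions, the drug dose, the length of treatment and the number of cells per pool were not stated in the labels or the design text. The comparison asks whether resistant pools differ from parental ones across the transcriptome. All libraries come from 1 cell line, and whether each pool began as its own culture is not in the labels, so the p-values reflect only how far these libraries spread, which may be technical.

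Each synthetase recognises 1 amino acid and the transfer RNAs that carry it, and the ribosome then uses the charged transfer RNA to build protein. Cytosol and mitochondria each have their own protein synthesis, and most amino acids therefore have a pair of nuclear genes, the mitochondrial one marked here by the ending 2. GARS and KARS, for glycine and lysine, each encode the enzyme of both compartments. EPRS carries both the glutamate and the proline enzyme in a single chain, while mitochondria use EARS2 and PARS2. The phenylalanine enzyme of the cytosol is built of subunits from FARSA and FARSB. The enzymes DARS, EPRS, IARS, KARS, LARS, MARS, QARS and RARS sit together in the multisynthetase complex. Amino acid shortage and stress of the endoplasmic reticulum raise many cytosolic synthetase genes through the transcription factor ATF4.

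Between 10936 and 11331 genes per library had an FPKM (fragments scaled to transcript length and to the library's mapped fragments) of at least 1. Relative depth, read from the steps of low values, lay between 1 in control 17 and 1.31 in resistant 28. The B cell genes MS4A1, CD79A, CD79B, PAX5, CD22 and CD74 were present in all 6 libraries. Among markers of other cell types, EPCAM and HBB were at 0 in every library, CD3D, CD3E, CD14, LYZ, MPO, COL1A1 and COL1A2 stayed under 1 FPKM, and CD68 and PECAM1 reached 4.37 and 5.55. Resistant 18 stood apart from the other libraries, and limma's array weights, which lower the influence of a library that deviates from its group, gave it 0.162 against 1.03 to 1.93 elsewhere. Medians of the synthetase classes and of the other gene lists are given with and without it where they moved by more than 1.5 times or changed sign.

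Synthetase transcripts of the cytosol were far more abundant per unit length than those of mitochondria. The median over the 20 cytosolic genes was 135, 126 and 127 FPKM in controls 17, 18 and 28, while resistant 17, 18 and 28 had 127, 146 and 120. The median over the 16 mitochondrial genes was 12.3, 12.9 and 11.2 FPKM in the controls. In resistant 17, 18 and 28 it was 13.2, 21.2 and 11.5, so that resistant 18 was the high one. For comparison, the median over all 11307 genes with enough signal to be tested (FPKM 1 or more in 3 libraries or more) was 10.7 to 11.9. All 36 synthetase genes passed that filter.

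WARS, the tryptophan enzyme, stood first with 389, 477 and 485 FPKM in controls 17, 18 and 28, beside 407, 462 and 498 in their resistant counterparts. The serine enzyme SARS followed, with 417.5, 344 and 313 FPKM in controls against 421, 250 and 401 in resistant libraries. The control values of WARS and SARS overlap, since SARS is above WARS in control 17, and for each gene control and resistant values overlap too. TARS, GARS and QARS came next with control means of 204 ± 13.5, 191 ± 24.7 and 186 ± 8.53 FPKM (SD, n = 3) and overlapping control values. The cytosolic genes at the low end were FARSA, HARS, FARSB and VARS, with control means of 35.0 ± 12.2, 32.1 ± 8.97, 28.6 ± 3.12 and 23.6 ± 4.81 FPKM. In mitochondria the isoleucine gene IARS2 was first at 48.4 ± 4.36 FPKM in controls, and the proline gene PARS2 last at 3.18 ± 0.256, with no overlap of either with its neighbour in the order of control values.

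**Figure D1:**
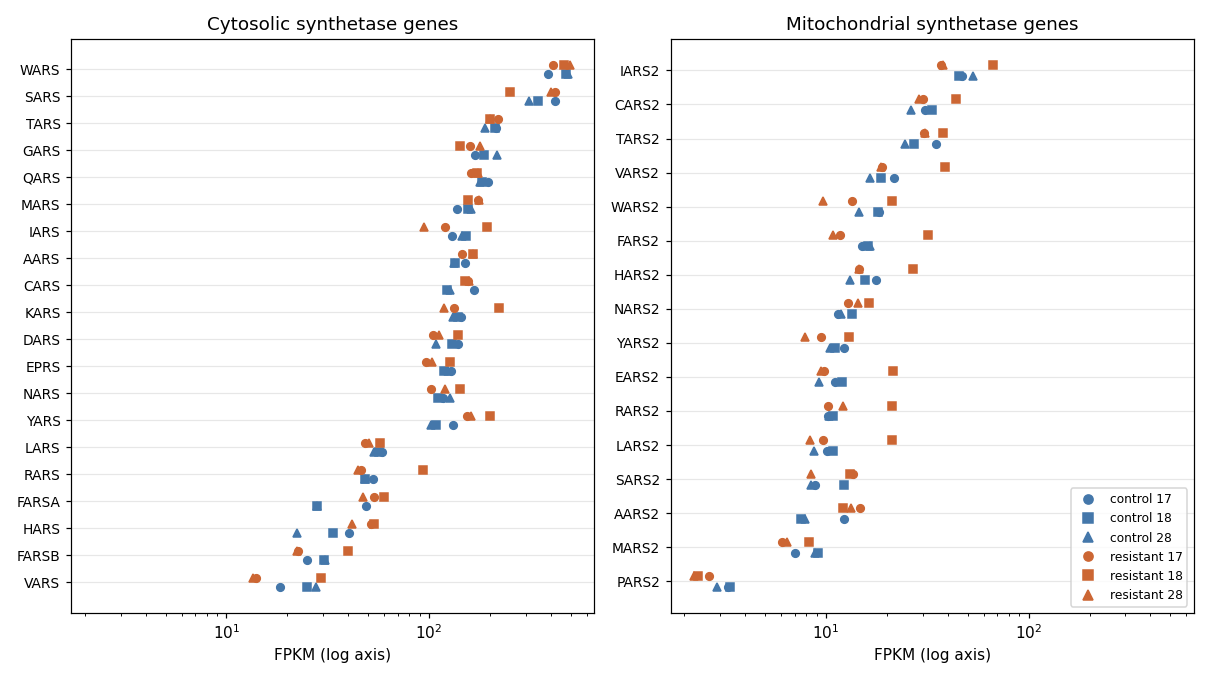
FPKM on a log axis of each synthetase gene in the 6 libraries, cytosolic genes on the left and mitochondrial genes on the right, ordered by their mean in controls, with control libraries in blue, resistant ones in orange and 1 marker shape per pool. The orange squares of resistant 18 lie to the right of the other libraries for most mitochondrial genes, for example LARS2 at 21.25 FPKM.

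Between resistant and control libraries, 4 synthetase genes had higher values with an unadjusted p under 0.05 and none passed after adjustment. These were YARS, HARS, FARSA and AARS2, for tyrosine, histidine, phenylalanine and alanine, 1.45- to 1.53-fold higher by mean FPKM and higher in all 3 pools. By limma on log2(FPKM + 1) with Benjamini-Hochberg adjustment over all genes, 0 of the 36 were called, against 0.0354% of the 11307 genes tested. The 4 with an unadjusted p under 0.05 are 11.1% of the synthetase genes, and 13.1% of all genes had such a p, so the share is no larger than the background. All 4 were in the higher direction, where the background is 5.99%, and 0 of 36 were in the lower direction, where it is 7.14%.

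YARS encodes the cytosolic tyrosine enzyme. Controls 17, 18 and 28 had 132, 108 and 102 FPKM, and resistant 17, 18 and 28 had 154, 201 and 161. Every resistant library lay above every control, with resistant 18 far above the rest. Its mean was 114 ± 15.6 against 172 ± 25.3 FPKM (SD, n = 3 each), a log2 difference of 0.59 (SE 0.19, limma adjusted p = 0.286). HARS, the cytosolic histidine enzyme, had 40.1, 33.65 and 22.4 FPKM in controls against 51.4, 53.5 and 41.6 in resistant libraries. Again the groups did not overlap, though control 17 and resistant 28 were close, and control 28 was well below the other controls. The log2 difference was 0.62 (SE 0.24, adjusted p = 0.347). Only YARS and HARS were higher with no overlap, 5.56% of the 36 against 10.1% of all genes.

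FARSA, the catalytic subunit of the cytosolic phenylalanine enzyme, had 49.1, 28.0 and 28.0 FPKM in controls against 53.4, 60.2 and 47.45 in resistant libraries. The controls of pools 18 and 28 were nearly equal, and control 17 lay above resistant 28. Its log2 difference was 0.65 (SE 0.25, adjusted p = 0.348), made of 0.12, 1.08 and 0.74 for pools 17, 18 and 28. AARS2, the mitochondrial alanine enzyme, had 12.2, 7.485 and 7.86 FPKM in controls against 14.7, 12.2 and 13.3 in resistant libraries. Control 17 was level with resistant 18, and the other controls were well below all resistant libraries. The log2 difference was 0.52 (SE 0.21, adjusted p = 0.359), and its cytosolic counterpart AARS differed by 0.18 (adjusted p = 0.680).

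In these 4 genes control 17 was the highest control, and the difference within pool 17 was the smallest of the 3 pools, from 0.12 to 0.35 on the log2 scale. None of the 4 had an unadjusted p under 0.05 without control 18, control 28, pool 18 or pool 28, only YARS did without resistant 17, and over all alternatives their adjusted p ran from 0.0858 to 0.923. In GENCODE v29, 7.7% of the exon bases of YARS and 6.1% of those of AARS2 overlap genes on the other strand.

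**Figure D2:**
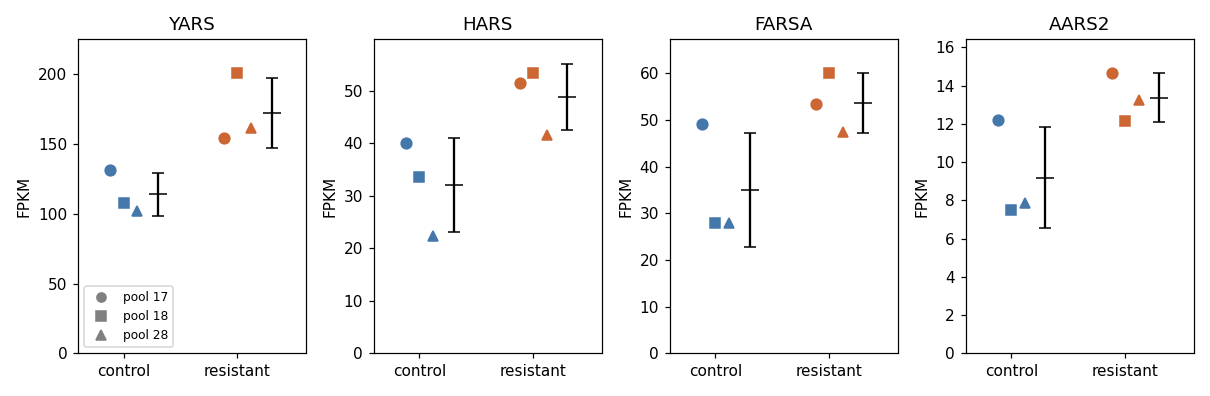
FPKM of YARS, HARS, FARSA and AARS2 in control (blue) and resistant (orange) libraries, with 1 marker shape per pool and the mean ± SD of 3 libraries in black. Resistant values are above all controls for YARS and HARS, and control 17 overlaps the resistant range for FARSA (49.1 FPKM) and AARS2 (12.2 FPKM).

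Toward lower values, 4 genes had a negative difference in all 3 pools, 11.1% of the synthetase genes against 18.7% of all genes. These were PARS2, MARS2, GARS and QARS. PARS2, the mitochondrial proline enzyme, had 3.30, 3.35 and 2.88 FPKM in controls against 2.63, 2.34 and 2.24 in resistant libraries, with no overlap (log2 difference -0.30, SE 0.15, adjusted p = 0.4465). MARS2, the mitochondrial methionine enzyme, had 7.07, 9.08 and 8.82 against 6.04, 8.205 and 6.39, where resistant 18 lay above control 17 (-0.25, adjusted p = 0.588). QARS, the glutamine enzyme, differed by -0.13 (adjusted p = 0.759), also with no overlap, so that PARS2 and QARS are 5.56% of the 36 against 11.1% of all genes.

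GARS serves glycine in both compartments. Its values were 168, 188 and 217 FPKM in controls against 159, 143 and 178 in resistant libraries, with overlap between the groups (-0.25, adjusted p = 0.602). In the higher direction, 7 of the 36 had positive differences in all 3 pools, 19.4% against a background of 18.9%. Beside the 4 genes above these were MARS, NARS2 and SARS2. NARS2, the mitochondrial asparagine enzyme, had 11.5, 13.45 and 11.9 FPKM in controls against 12.8, 16.3 and 14.4 in resistant libraries, with resistant 17 inside the control range (0.22, adjusted p = 0.588). SARS2, the mitochondrial serine enzyme, had 8.86, 12.3 and 8.42 against 13.6, 13.1 and 8.45. Its difference of 0.57 within pool 17 was the largest there, while it was 0.0045 in pool 28. In GENCODE v29, 83.1% of the exon bases of SARS2 also belong to the readthrough gene AC011455.2 or to MRPS12 on the other strand, so its FPKM may hold fragments of those genes.

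HARS and HARS2 start back to back on chromosome 5, and the order of their values over the libraries differed. HARS2 had 17.7, 15.6 and 13.1 FPKM in its controls, against 14.6, 26.9 and 14.55 with resistance. Resistant 18 was high, while resistant 17 and 28 lay inside the control range (0.21, SE 0.26, adjusted p = 0.770). The ratio of HARS to HARS2 was 2.27, 2.16 and 1.71 in controls and 3.52, 1.99 and 2.86 in resistant libraries, so it was higher in resistant 17 and 28 than in any control and not in resistant 18. The 84 bases between the RefSeq starts, chr5:140691371-140691454 of GRCh38.p14, are shown because both genes are transcribed away from this stretch, HARS from the minus strand and HARS2 from the plus strand. It is printed on the plus strand with the letters CCGGAAG, the core bound by ETS transcription factors, in capitals on either strand.
HARS-HARS2: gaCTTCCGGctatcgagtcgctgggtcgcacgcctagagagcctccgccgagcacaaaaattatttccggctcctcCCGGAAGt
The stretch holds 2 such matches, 1 on each strand and 1 near each start. CCGGAAG occurs on either strand in 10.3% of all 35116 RefSeq promoter windows of 300 bases (250 before the start and 50 from it on), and in the windows of 9 of 16 cytosolic and 7 of 14 mitochondrial synthetase genes. A gene was counted if any of its windows matched, so its count and the share of windows are unlike measures. The HARS-HARS2 stretch is counted in both classes. The match is a description of letters, not of binding. In GENCODE v29 the exons of both genes extend further, and 9.5% of HARS exon bases and 14.2% of those of HARS2 overlap each other on opposite strands. No source used here states whether the libraries kept strand, so fragments from that overlap cannot be assigned.

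The differences were not alike in the 3 pools. Within a pool there is 1 library per group and no test. A pool here joins the libraries of the same number. Their deviations from the group means correlated weakly (r of 0.15, 0.089 and -0.024 for pools 17, 18 and 28). Differences within a pool thus depend on a pairing that the values do not clearly show. In pool 17 the synthetase differences were small, from -0.41 to 0.57 on the log2 scale, and 26 of 36 genes were lower and 10 higher in the resistant library, where 52.8% of all genes were lower and 47.2% higher. Past 0.5 there were 1 higher gene, SARS2, and 0 lower, against 9.94% and 9.3% of all genes. In pool 18, 29 of 36 were higher and 7 lower, where 53.4% and 46.4% of all genes were. Past 0.5 there were 13 higher (36.1%) and 0 lower, against 21.3% and 19.7%. In pool 28 the genes were split, with 19 higher and 17 lower, beside 49.3% and 50.6% of all genes. Past 0.5 there were 4 higher and 4 lower, against 15.7% and 15.8%. A difference past 1 was present in FARSA and VARS2 in pool 18 only, where 5.41% of all genes were higher and 7.24% lower by that much, and the same shares were 2.45% and 1.72% in pool 17 and 4.06% and 4.02% in pool 28. Across the 36 genes the differences of pools 17 and 28 correlated at a Pearson r of 0.64, those of pools 18 and 28 at 0.27 and those of pools 17 and 18 at 0.06, while over all genes tested the same values were 0.49, 0.11 and 0.01. Genes are not independent replicates, so these values are descriptions.

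**Figure D3:**
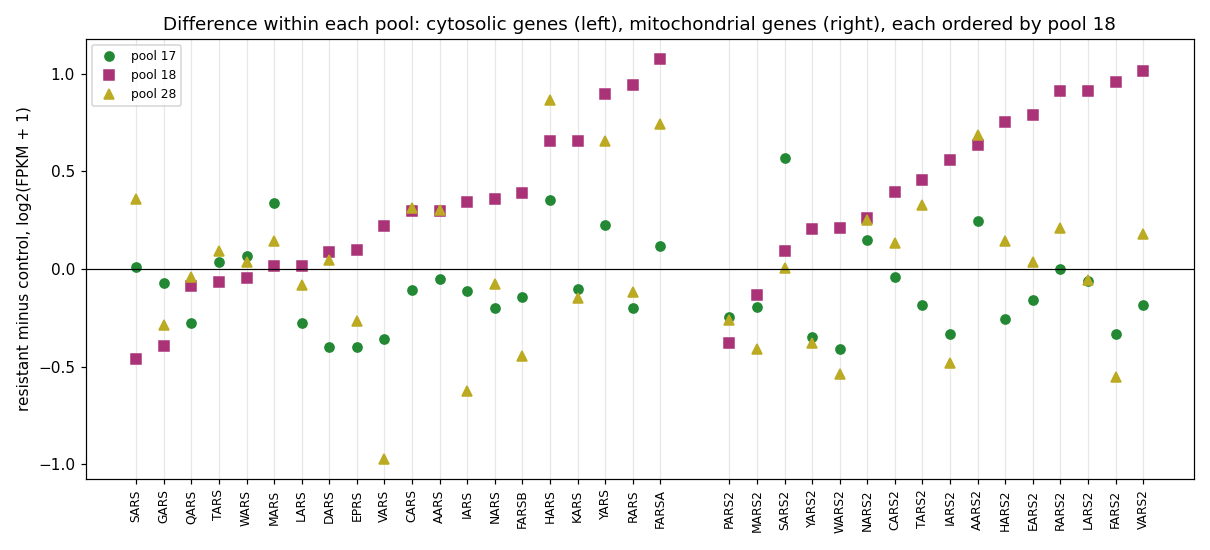
Resistant minus control on log2(FPKM + 1) within pools 17 (green circles), 18 (purple squares) and 28 (yellow triangles) for each gene, cytosolic genes on the left and mitochondrial ones on the right, each ordered by pool 18. FARSA and VARS2 pass 1 in pool 18, VARS lies near -1 in pool 28 only, and only YARS, HARS, FARSA, MARS, AARS2, NARS2 and SARS2 have all 3 points above 0.

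In resistant 18 most mitochondrial genes were at their highest level. Of the 16, 14 were above control 18, as were 53.4% of all genes, with a median log2 difference of 0.51. Of the 16, 8 were above it by more than 0.5 (50%, against 21.3% of all genes). The 20 cytosolic genes had a median of 0.26, with 5 above 0.5 (25%). Over all genes tested the median in pool 18 was 0.05. Resistant 18 was the highest of the 6 libraries for 12 of the 16 mitochondrial genes and 10 of the 20 cytosolic ones, against 35.4% of all genes. With trends of GC content and transcript length removed, the medians in pool 18 were 0.41 for mitochondrial and 0.13 for cytosolic genes. This is a description of 1 library, and no test of the difference between classes was made.

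VARS2, the mitochondrial valine enzyme, had 21.6, 18.75 and 16.4 FPKM in controls against 18.9, 38.9 and 18.7 in resistant libraries. FARS2, the mitochondrial phenylalanine enzyme, had 15.03, 16.1 and 16.4 against 11.7, 32.1 and 10.85. In both genes resistant 18 was far above every other library, and in FARS2 the other resistant libraries were below all controls. LARS2, RARS2 and EARS2, for leucine, arginine and glutamate, had 21.25, 21.15 and 21.3 FPKM in resistant 18 and no more than 12.1 in any other library. PARS2 and MARS2 were the mitochondrial genes below control 18 there. Among cytosolic genes RARS, for arginine, had 53.05, 48.05 and 48.3 FPKM in controls against 46.0, 93.15 and 44.4 in resistant libraries, and KARS, for lysine, had 220 in resistant 18 against 119 to 143 in the others. SARS and GARS were furthest below control 18, with differences of -0.46 and -0.39.

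Over all 6 libraries the median difference was 0.21 for mitochondrial genes, 0.02 for cytosolic genes and 0.01 for all genes tested. The mitochondrial value rested on resistant 18, since it was -0.10 without that library and -0.06 without pool 18, where the cytosolic median was -0.11 and -0.13. Without resistant 18, 9 of the 36 synthetase genes had an unadjusted p under 0.05, where 2640 of the 11307 genes did, and 0 passed limma's adjusted threshold. Then 7 of those 9 were lower in resistant libraries, VARS and FARS2 with the smallest p (log2 differences -0.71 and -0.45, adjusted p = 0.1245 and 0.125), and YARS and AARS2 were higher (0.47 and 0.58). Without pool 18, 3 synthetase genes had such a p, and these were VARS, FARS2 and IARS2, all lower. Shares of all genes by direction were not computed for these fits. No count over all genes is set beside the 3 found without pool 18, so they cannot be read against a background.

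**Figure D4:**
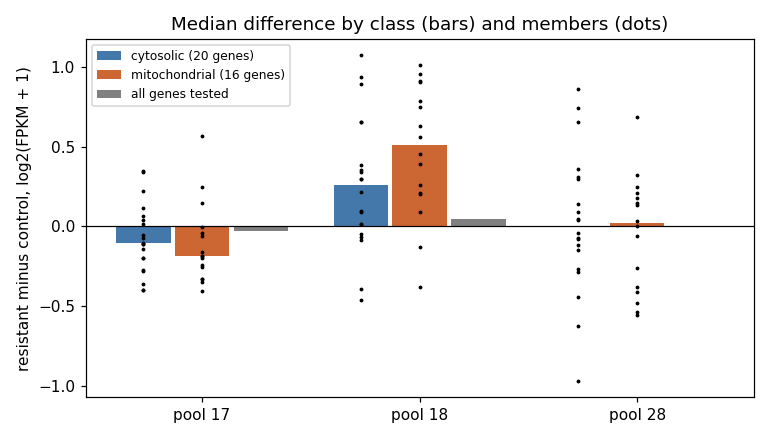
Median of resistant minus control on log2(FPKM + 1) in each pool for the 20 cytosolic genes (blue), the 16 mitochondrial genes (orange) and all genes tested (grey), with each synthetase gene as a dot. The mitochondrial bar is lowest in pool 17 (-0.18), highest in pool 18 (0.51) and near 0 in pool 28 (0.02).

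FARSA was also among the 4 largest differences of pool 28, with HARS, AARS2 and VARS, while SARS2, WARS2, DARS and EPRS were those of pool 17. VARS, the cytosolic valine enzyme, had 18.3, 25.01 and 27.6 FPKM in controls against 14.0, 29.25 and 13.6 in resistant libraries. Resistant 17 and 28 lay below all controls and resistant 18 above them, and the difference in pool 28 was -0.97. WARS2, the mitochondrial tryptophan enzyme, had 18.25, 18.1 and 14.5 against 13.5, 21.15 and 9.70, with resistant 17 and 28 again below all controls and resistant 18 above them. DARS, for aspartate, had 139, 130 and 108 FPKM in controls against 105, 139 and 112 in resistant libraries, and EPRS 128, 118 and 125 against 96.8, 126 and 103.5. Both had a difference of -0.40 in pool 17, and neither passed over the pools (adjusted p = 0.879 and 0.683).

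The cytosolic and mitochondrial genes for the same amino acid did not keep a fixed ratio. Over 17 pairs (PARS2 and EARS2 both set against EPRS, and FARS2 against FARSA and FARSB), the ratio of cytosolic to mitochondrial FPKM ran from 0.725 to 54.0. Summed over each class, it was 10.6, 10.6 and 11.3 in controls 17, 18 and 28 while resistant 17, 18 and 28 had 11.4, 7.70 and 12.3, lowest in resistant 18. YARS to YARS2 was 10.7, 9.70 and 9.74 in controls and 16.2, 15.5 and 20.6 in resistant libraries. No value of the resistant group lay within the control range, and YARS2 itself differed by -0.17 (adjusted p = 0.752). VARS to VARS2 was 0.848, 1.33 and 1.68 in controls and 0.744, 0.752 and 0.725 in resistant libraries. Those 3 resistant values were nearly equal, though both genes were higher in resistant 18 than in the other resistant libraries, and all lay below the controls, which spread widely.

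For methionine and tryptophan the differences of the cytosolic and the mitochondrial gene had opposite signs in each pool. MARS had 138, 155 and 161 FPKM in controls against 174, 156 and 177 in resistant libraries, with differences of 0.34, 0.01 and 0.14 in pools 17, 18 and 28, and MARS2 differed by -0.20, -0.13 and -0.41. The ratio of MARS to MARS2 was 19.5, 17.05 and 18.2 in controls and 28.9, 19.05 and 27.8 in resistant libraries, which was level with the controls in resistant 18 only. WARS differed by 0.07, -0.05 and 0.04, and WARS2 by -0.41, 0.21 and -0.54, so WARS stayed near 0 and the larger differences were those of WARS2. These ratios are given without a test.

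**Figure D5:**
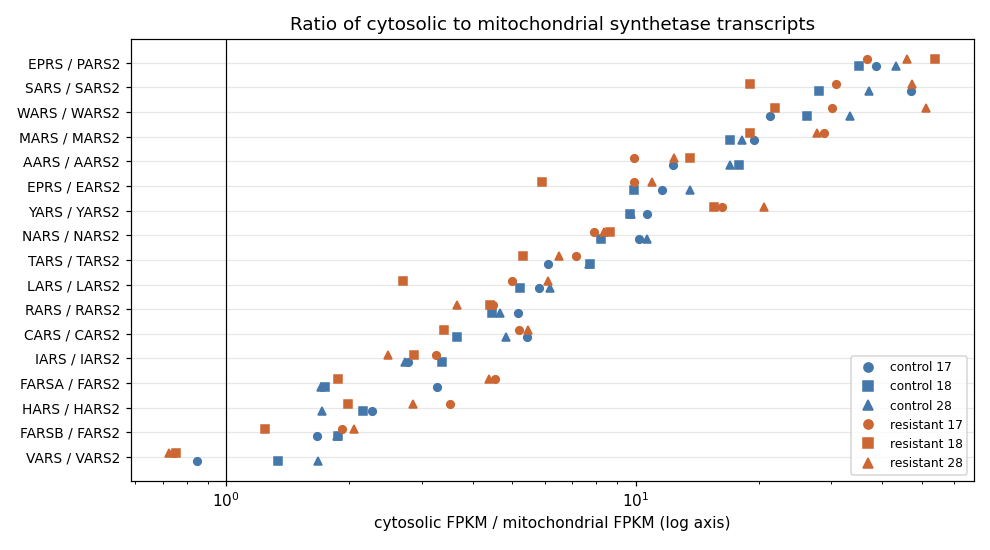
Ratio of cytosolic to mitochondrial FPKM on a log axis for 17 pairs of genes in the 6 libraries, controls in blue, resistant in orange, 1 marker shape per pool, and a vertical line at equal levels. YARS over YARS2 is higher in all resistant libraries (15.5 to 20.6 against 9.70 to 10.7 in controls), and VARS over VARS2 is lower.

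By assembly of the enzymes, the 8 genes of the multisynthetase complex had a median difference of -0.10, with 3 positive and 5 negative, and the 12 cytosolic genes outside it had 0.02, with 8 positive and 4 negative. The median over all genes was 0.01. None of the 8 complex genes had an unadjusted p under 0.05, and 3 of the 12 others did (YARS, HARS and FARSA), beside 13.1% of all genes. Without resistant 18 these counts were 1 and 2, where 2640 of the 11307 genes had such a p, and the medians were -0.16 and 0.10. The difference between the groups was not tested. By fold of the catalytic domain, the 10 cytosolic class I enzymes had a median of -0.05 and the 10 class II enzymes 0.02. EPRS, which has a domain of each class, was counted in class I, whose median was 0.02 when it was left out. Without resistant 18 the medians were -0.14 and -0.03. The subunits of the phenylalanine enzyme, which are needed in equal number, differed between libraries in their ratio. FARSA over FARSB was 1.96, 0.929 and 0.912 in controls and 2.37, 1.51 and 2.13 in resistant libraries, so control 17 was with the resistant libraries and not with the other controls. FARSB itself had a log2 difference of -0.07 (adjusted p = 0.937).

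The complex also holds 3 scaffold proteins without enzyme activity, encoded by AIMP1, AIMP2 and EEF1E1. EEF1E1 had 28.7, 28.9 and 30.8 FPKM in controls against 44.6, 45.0 and 40.3 in resistant libraries. The control values were close together, as were the resistant ones, with a wide gap between them. Over all genes, 10.1% were higher with no overlap of the groups. The log2 difference of 0.54 (SE 0.15) was not called by limma (adjusted p = 0.220). AIMP1 differed by 0.24 (adjusted p = 0.5445) and AIMP2 by -0.05 (0.958).

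The 12 cytosolic synthetase genes known as targets of ATF4 (AARS, CARS, EPRS, GARS, IARS, LARS, MARS, NARS, SARS, TARS, WARS and YARS) had a median difference of 0.02, with 7 positive and 5 negative. Among them 1 (8.33%, beside 13.1% of all genes) had an unadjusted p under 0.05, YARS. The 8 other cytosolic genes had a median of 0.03. The medians of the first and the second group were -0.06 and -0.17 in pool 17, 0.06 and 0.52 in pool 18, and 0.06 and -0.08 in pool 28. Without resistant 18 they were 0.02 and -0.14 over the libraries. Differences between the groups were not tested. In pool 18 the ATF4 group ran from -0.46 for SARS to 0.36 for NARS, with YARS above them at 0.89.

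Matches to the ATF4 binding element in synthetase promoters are shown to place these genes. RefSeq windows of GRCh38.p14 were matched for 16 of the 20 cytosolic genes (not DARS, LARS, VARS and YARS) and 14 of the 16 mitochondrial ones (not AARS2 and VARS2). The core of the composite element for ATF4 and C/EBP factors, TGATGNAA on either strand, was present for 7 cytosolic genes, all in the ATF4 group, and for the mitochondrial gene YARS2. It was in 3.62% of all windows. A gene was counted if any of its windows matched, while that share is of single windows, so they are unlike measures. EPRS, SARS and WARS of the ATF4 group had a window and no match. Each site is printed on the strand of its gene with the match in capitals and 10 bases on each side. On the opposite strand the core reads TTNCATCA.
AARS, chr16:70289676-70289703: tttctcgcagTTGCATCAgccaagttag
CARS, chr11:3057408-3057435: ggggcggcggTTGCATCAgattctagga
GARS, chr7:30594835-30594862: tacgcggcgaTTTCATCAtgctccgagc
IARS, chr9:92293693-92293720: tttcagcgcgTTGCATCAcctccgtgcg
MARS, chr12:57488054-57488081: ccggttccggTTGCATCAgcgagggatt
NARS, chr18:57621805-57621832: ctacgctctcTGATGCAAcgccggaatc
TARS, chr5:33440957-33440984: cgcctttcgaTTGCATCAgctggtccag
YARS2, chr12:32756077-32756104: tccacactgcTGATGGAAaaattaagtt
In AARS the match begins 187 bases before the start and in YARS2 197 bases before it, while in the other genes it lies within 33 bases of the start or just after it. AARS, CARS, IARS, MARS and TARS share the letters TTGCATCA, and NARS has the same letters on its other strand. Their differences between resistant and control libraries were 0.18, 0.17, -0.13, 0.165 and 0.02, with 0.03 for NARS and -0.25 for GARS (adjusted p from 0.602 to 0.975). No match in a window says only that these letters are not in those 300 bases.

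ATF4 transcript levels were 1319, 1280 and 1047 FPKM in the controls, against 1151, 955 and 1249 with resistance. The groups overlapped, with resistant 18 lowest (log2 difference -0.12, adjusted p = 0.855). Of 22 tested genes of the amino acid response, 0 passed limma's threshold, 0 had an unadjusted p under 0.05 and 11 were positive, with a median of 0.02. The pools differed in sign, with medians of 0.16 and 0.19 in pools 17 and 28 and -0.29 in pool 18. Without resistant 18 the median was 0.11 and 6 of the 22 had an unadjusted p under 0.05, where 2640 of the 11307 genes did. With all 6 libraries the smallest p was that of EIF2AK4, the kinase GCN2 that senses uncharged transfer RNA (-0.33, limma adjusted p = 0.3935). PYCR1, an enzyme of proline synthesis, followed (0.32, 0.474). ASNS, asparagine synthetase, differed by -0.13 and DDIT3, a stress transcription factor, by 0.09. Exons of DDIT3 and MARS overlap on opposite strands over 2.1% of the MARS exon bases.

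Amino acid transporters had 0 of 9 genes past the threshold and 1 (11.1%, beside 13.1% of all genes) with an unadjusted p under 0.05. They had 2 positive differences, where 5838 of the 11307 genes were positive, and a median of -0.08 (-0.03 without resistant 18). SLC7A1, which carries arginine and lysine into the cell, had 21.9, 26.9 and 40.5 FPKM in controls against 15.04, 10.9 and 16.8 in resistant libraries. All resistant libraries were below all controls, as for 11.1% of all genes, though the controls spread widely (log2 difference -0.99, SE 0.27, limma adjusted p = 0.220). SLC7A11, the cystine carrier, differed by -0.30 (0.429).

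WARS is the synthetase known to be induced by interferon gamma. Its difference was 0.02 (SE 0.20, limma adjusted p = 0.979). Of the tested genes of the interferon gamma response, 11 of 11 had positive differences, with a median of 0.30, where 5838 of the 11307 genes were positive. Of these, GBP2 reached 1 FPKM in control 18 but in no other control, and passed the filter through the resistant libraries, which favours a positive sign. In every pool 6 of the 11 were higher (54.5%, against 18.9% of all genes), and in pool 18 only 7 were. Of those 11, 0 passed the threshold and 1 (9.09%, beside 13.1% of all genes) had an unadjusted p under 0.05. GBP4, a guanylate-binding protein, had 8.37, 8.23 and 7.25 FPKM in controls against 11.55, 13.35 and 12.4 in resistant libraries (0.59, adjusted p = 0.197). TAP2, a peptide transporter subunit, differed by 0.44 (0.399). By pool, the median of the list was 0.30 (17), 0.07 (18) and 0.48 (28), and WARS lay between -0.05 and 0.07 in all of them. In GENCODE v29, 11% of the exon bases of WARS overlap genes on the other strand. GBP1, GBP5, CXCL9, CXCL10 and IDO1 were too low to be tested.

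Of the 9 mitochondrial translation factors, 8 were above control 18 in resistant 18, as were 53.4% of all genes, and MTIF2, an initiation factor, was below it (-0.17). The translation factors had medians of -0.15, 0.39 and 0.18 in pools 17, 18 and 28, beside -0.18, 0.51 and 0.02 for the mitochondrial synthetases. Their median over the libraries was 0.18, or 0.0045 without resistant 18. TUFM, the mitochondrial elongation factor, had 361 FPKM in resistant 18 and 161.5 to 186 in the other libraries, and GFM1, another elongation factor, 70.0 against 31.6 to 37.5. Over the pools 0 of the 9 passed and 1 (11.1%, beside 13.1% of all genes) had an unadjusted p under 0.05. This was TSFM, the exchange factor of TUFM, with 25.9, 25.3 and 18.5 FPKM in controls against 33.7, 33.3 and 33.8 in resistant libraries (0.53, SE 0.18, adjusted p = 0.290). MTRF1L, a release factor, differed by 0.21 (0.645).

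Of 5 other genes of mitochondrial charging, 0 passed and 0 had an unadjusted p under 0.05, with a median of 0.03, or -0.21 without resistant 18. PET112, a subunit of the enzyme that makes mitochondrial glutaminyl-tRNA, differed by 0.44 (0.461). MTFMT, which formylates the mitochondrial initiator, ranged from 14.8 to 253 FPKM among controls alone and from 15.5 to 43.7 in resistant libraries (-1.64, SE 1.03, 0.531).

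For the cytosol, 0 of 7 elongation and termination genes passed or had an unadjusted p under 0.05, with a median of -0.11. EEF1B2, an exchange factor of elongation, had 1614, 1672 and 1301 FPKM in controls against 1167, 1015 and 1189 in resistant libraries (-0.44, adjusted p = 0.444), and the release factor gene ETF1 differed by 0.32 (0.5385). Of 24 genes of transfer RNA processing and export, 10 were higher in each of the pools. Over the pools 19 had positive differences (median 0.20), where 5838 of the 11307 genes did. The 10 are 41.7% of the list, beside 18.9% of all genes. The medians were 0.03, 0.42 and 0.17 in pools 17, 18 and 28, and without resistant 18 the median over the libraries was 0.13. Again 0 passed, and 3 (12.5%, beside 13.1% of all genes) had an unadjusted p under 0.05. SSB, the La protein that binds new RNA polymerase III transcripts, had 25.3, 27.1 and 19.5 FPKM in controls against 36.1, 41.0 and 35.6 in resistant libraries (0.64, SE 0.18, adjusted p = 0.228).

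RNA polymerase III, which transcribes the transfer RNAs, and its factors had 0 of 21 genes past the threshold. Among them 1 (4.76%, beside 13.1% of all genes) had an unadjusted p under 0.05. The list had 11 positive differences and a median of 0.02 (-0.08 without resistant 18). GTF3C6, a subunit of the factor that binds transfer RNA genes, had 20.6, 21.3 and 17.0 FPKM in controls against 30.0, 30.5 and 34.45 in resistant libraries (0.66, SE 0.16, adjusted p = 0.197). All resistant values lay above all controls, as for 10.1% of all genes, while the largest subunit gene GTF3C1 differed by -0.36 (0.431). Of 4 genes for selenocysteine, 0 passed and 1 (25%, beside 13.1% of all genes) had an unadjusted p under 0.05. This was PSTK, the kinase that prepares the selenocysteine transfer RNA, at 0.42 (0.294), and SECISBP2 differed by 0.37 (0.416).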

How the data were processed

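RNA sequencing of 6 HG3 libraries was used as FPKM deposited by the authors, per the file headers, with commas as decimal marks. The tools named are Cufflinks 2.2.1, TopHat2 2.0.4, DESeq2 and HTSeq 0.6.1, and the build is hg19, per the submitters' processing notes. For the role of each tool, the annotation and the strand handling: not given in the sources used here. Dividing by transcript length allows levels to be compared between genes, but errors in that length carry into FPKM. No counts were analysed here, so no counting interval was computed. Relative depth came from ratios of low values, 53.6% to 59.3% of which were ratios of small whole numbers (within 0.02 on the log2 scale).

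Genes with FPKM of at least 1 in at least 3 libraries (11307) entered 1 limma 3.58.1 fit (R 4.3.3) of log2(FPKM + 1) (mean-variance trend, two-sided, Benjamini-Hochberg over all genes, threshold 0.05). The pseudocount shrinks differences of low genes. Fits were tested on simulated data with changes larger than any synthetase difference, so this test does not cover changes of the size described here. GC content and length came from GENCODE v29 (9919 genes, 87.7%), with a loess span of 0.5. The members and lists were chosen with earlier results of these data known. Values in each library are given for the 8 members of smallest p that moved alike in all pools, the 4 with the largest difference in each pool, and pairs of opposite sign in all pools; of each other list, the 2 genes of smallest p are named, except that some are not reported here. Other genes were named after their values were seen. Alternatives were pseudocounts of 0.1 and 5, no filter, quantile normalization, median centring, the pool as a block, GC and length trends removed, array weights, and leaving out each library or pool with the same genes tested. Leaving resistant 18 out of the other lists and subgroups, and EPRS out of class I, was chosen after seeing the data. GRCh38.p14 coordinates belong to RefSeq promoter windows only.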

Additional observations from a re-analysis of the deposited data

How the results depend on the processing

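No synthetase gene passed the adjusted threshold under any alternative. Genes called over all genes went from 4 to 25 with no filter, 2 with GC and length trends removed, 0 with those trends removed and the replicate block, and 301 with array weights, where 2998 had an unadjusted p under 0.05 and resistant 18 counted least. Synthetase genes with such a p went from 4 to 2 with no filter, 1 with quantile normalization and 7 with array weights. Over all genes the same count was 1484 in the main fit, 2056 of 23619 with no filter, 1540 with quantile normalization and 2998 with array weights. Leaving out each library or pool, with the same 11307 genes tested, gave 3 to 18 genes called, 545 to 2640 with an unadjusted p under 0.05, and 0 to 9 synthetase genes with one. The median difference ran from -0.13 to 0.09 for cytosolic and from -0.10 to 0.28 for mitochondrial genes. Depth could not be given as counts, so low genes such as PARS2 have no counting error.

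The replicate block (pool number) gave 3 genes called, 1458 with an unadjusted p under 0.05 and 4 synthetase genes among them. Same-numbered libraries deviated together with r of 0.15, 0.089 and -0.024 for pools 17, 18 and 28. Control 17 with resistant 28 gave a higher value than any of these (0.173). Control 28 with resistant 18 gave 0.124, above the values of pools 18 and 28 but below that of pool 17. The main fit did not take the numbers as pairing the libraries, while the differences within pools did. The block changed no call of a synthetase gene.

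Signs turned as follows, and the cause was not tested. NARS, TARS and FARS2 were -0.049, -0.0050 and -0.018 with quantile normalization, and WARS was -0.00043 with libraries centred on their medians. With GC and length trends removed, with or without the replicate block, NARS, WARS and FARS2 were -0.029, -0.0043 and -0.035. With array weights KARS was -0.086, NARS -0.072, RARS -0.072, SARS 0.19, WARS -0.031, CARS2 -0.025, EARS2 -0.11, FARS2 -0.39, HARS2 -0.029 and LARS2 -0.081. Leaving out a library or pool gave SARS -0.22 to 0.21, WARS -0.082 to 0.098, FARS2 -0.45 to 0.31, NARS -0.14 to 0.15, TARS -0.035 to 0.064, FARSB -0.33 to 0.12, IARS2 -0.41 to 0.11, KARS -0.13 to 0.31, RARS -0.16 to 0.41, CARS2 -0.026 to 0.27, EARS2 -0.14 to 0.41, HARS2 -0.068 to 0.45, LARS2 -0.12 to 0.51, VARS2 -0.0024 to 0.60, IARS -0.42 to 0.11, WARS2 -0.52 to 0.0031 and DARS -0.21 to 0.066.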
